A study of Homo sapiens with 12 samples.

Results

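The genes described here are the solute carrier families that move amino acids across membranes. They were chosen by symbol as all members of SLC1, SLC3, SLC6, SLC7, SLC36, SLC38 and SLC43, which gave 59 of the 20003 genes with an FPKM value. The values come from mRNA-seq of 2 leukemia cell lines. NB4 was derived from an acute promyelocytic leukemia and carries the PML-RARα fusion. Kasumi-1 was derived from an acute myeloid leukemia of the M2 subtype and carries the AML1-ETO fusion, which arises from the t(8;21) translocation. Each line gave 3 control samples, treated with DMSO, and 3 samples treated with 1 μM OGP46, a kaurene diterpenoid made from oridonin, so that there were 12 samples in 4 groups. The labels and the study's methods give 48 h of treatment for the RNA, whereas a figure legend of the study gives a longer time. The same legend calls the figures representative of 3 independent experiments, and the study's methods say that experiments were repeated at least 3 times. Neither says whether the sequenced samples of a group were separate cultures. The tests therefore measure the spread between these samples, which may be technical. Each line descends from a single patient, and nothing here tells a property of the leukemia subtype from a property of that line.

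Cells take up amino acids through carriers with overlapping substrates. SLC1A5 (ASCT2), SLC38A1 and SLC38A2 bring in glutamine and other small neutral amino acids, and SLC7A5 (LAT1) exchanges intracellular amino acids for leucine and other large neutral ones. SLC7A5 and its relatives SLC7A6, SLC7A7, SLC7A8, SLC7A10 and SLC7A11 are light chains that reach the cell surface only when bound to the heavy chain SLC3A2 (CD98). SLC7A11 (xCT) exchanges glutamate for cystine, the precursor of the cysteine used for glutathione, and several of these genes are textbook targets of ATF4, the transcription factor of the amino acid response, or of NRF2, that of the response to oxidants.

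FPKM, the fragments of a gene scaled to its exon length and to the mapped total, can be compared between genes. The read depth behind it is unknown, so no counting error is given. Per sample, FPKM added up to 248207 to 310262 over all genes, and 9339 to 9746 genes reached 1 FPKM. RUNX1T1, the AML1-ETO partner gene, set the lines apart, with at most 0.0762 FPKM in NB4 and at least 8.17 FPKM in Kasumi-1. Granule protein genes did not mark NB4, since MPO reached 3323 FPKM at most in NB4 and at least 4184 FPKM in Kasumi-1. Of the 6 Kasumi-1 markers, 5 were highest among the NB4 samples in NB4 control 3, at 0.548% to 2.32% of the mean of the Kasumi-1 controls, and POU4F1 lay between 5.44% and 11.3% in all NB4 samples. The neutrophil gene LCN2 was listed at 0 in all 12 samples, and LTF in all but 1.

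Of the 59 members, 26 averaged 0.1 FPKM or more over all NB4 samples, and 26 over all Kasumi-1 samples. The lines shared 24 of these, while SLC6A8 and SLC7A7 passed only in NB4 and SLC6A16 and SLC38A3 only in Kasumi-1. The remaining 31 members averaged below 0.1 FPKM in both lines, with a highest single value of 0.110 FPKM for SLC7A9 in 1 Kasumi-1 control, and 17 of them were listed at 0 in all 12 samples. Several of these are known as carriers of nerve, kidney and gut. Among the 19 members of SLC6, the family of the neurotransmitter carriers, 3 passed in each line. The noradrenaline carrier SLC6A2 and the glycine carrier SLC6A5 were listed at 0 throughout, as was SLC6A19, the neutral amino acid carrier of gut and kidney. SLC38 was the family with the most members passing, 7 of 11 in NB4 and 8 of 11 in Kasumi-1, and all 3 members of SLC43 passed in both lines.

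The summed FPKM of all members was higher in NB4 than in Kasumi-1. It was 698.9 ± 36.4 (SD, n = 3) in NB4 controls and 866.3 ± 77.4 in NB4 with OGP46, compared with 312.2 ± 14.4 in Kasumi-1 controls and 317.5 ± 15.4 in Kasumi-1 with OGP46. As a share of the FPKM of all genes, the members made up 0.276% ± 0.00953 in NB4 controls, 0.313% ± 0.0335 in NB4 with OGP46, 0.107% ± 0.00513 in Kasumi-1 controls and 0.110% ± 0.00853 in Kasumi-1 with OGP46. The range of the NB4 controls reached 0.283% and that of NB4 with OGP46 began at 0.279%, so these shares overlapped in NB4. By family, the SLC1 sum was 213.7 ± 13.5 FPKM in NB4 controls against 46.3 ± 3.16 FPKM in Kasumi-1 controls, and the SLC43 sum was 119.0 ± 5.25 against 24.5 ± 1.87 FPKM. The SLC43 gap was that of SLC43A3, a carrier of purine nucleobases, with means of 107 and 11.0 FPKM. The amino acid carrier SLC43A1 averaged 10.9 FPKM in NB4 controls and 13.3 FPKM in Kasumi-1 controls. The SLC38 sum was 117.7 ± 12.1 FPKM in NB4 controls and 134.1 ± 2.67 FPKM in Kasumi-1 controls, which came to 0.0464% ± 0.00466 and 0.0459% ± 0.00191 of the FPKM of all genes.

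**Figure D1:**
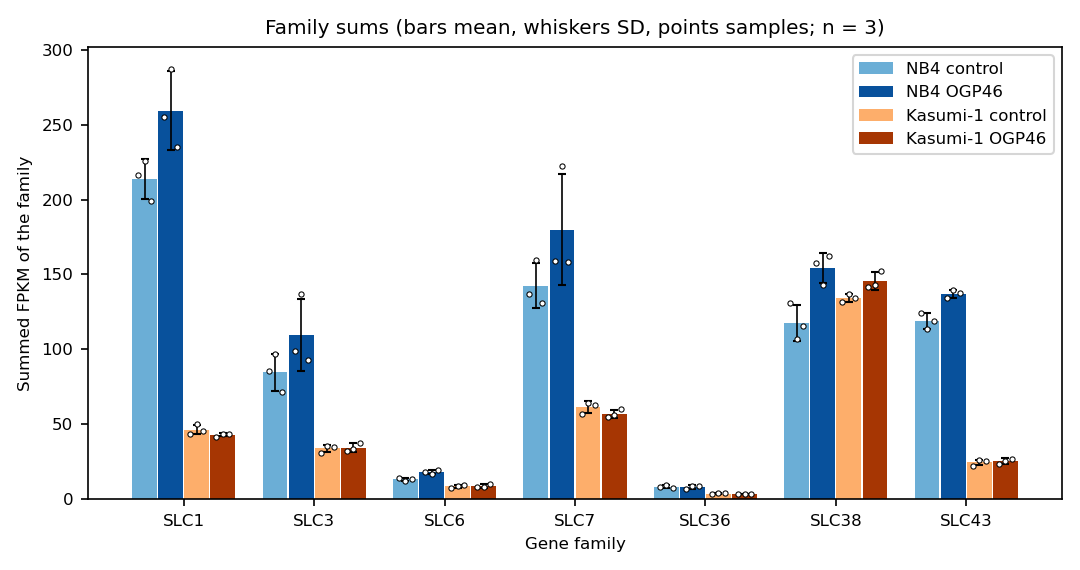
Summed FPKM of each of the 7 families in the 4 groups, as the mean (bars), SD (whiskers) and single samples (points), with n = 3 per group. The SLC1, SLC3, SLC7 and SLC43 bars of NB4 stand above those of Kasumi-1, whereas the SLC38 bars of the lines are of similar height.

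**Figure D2:**
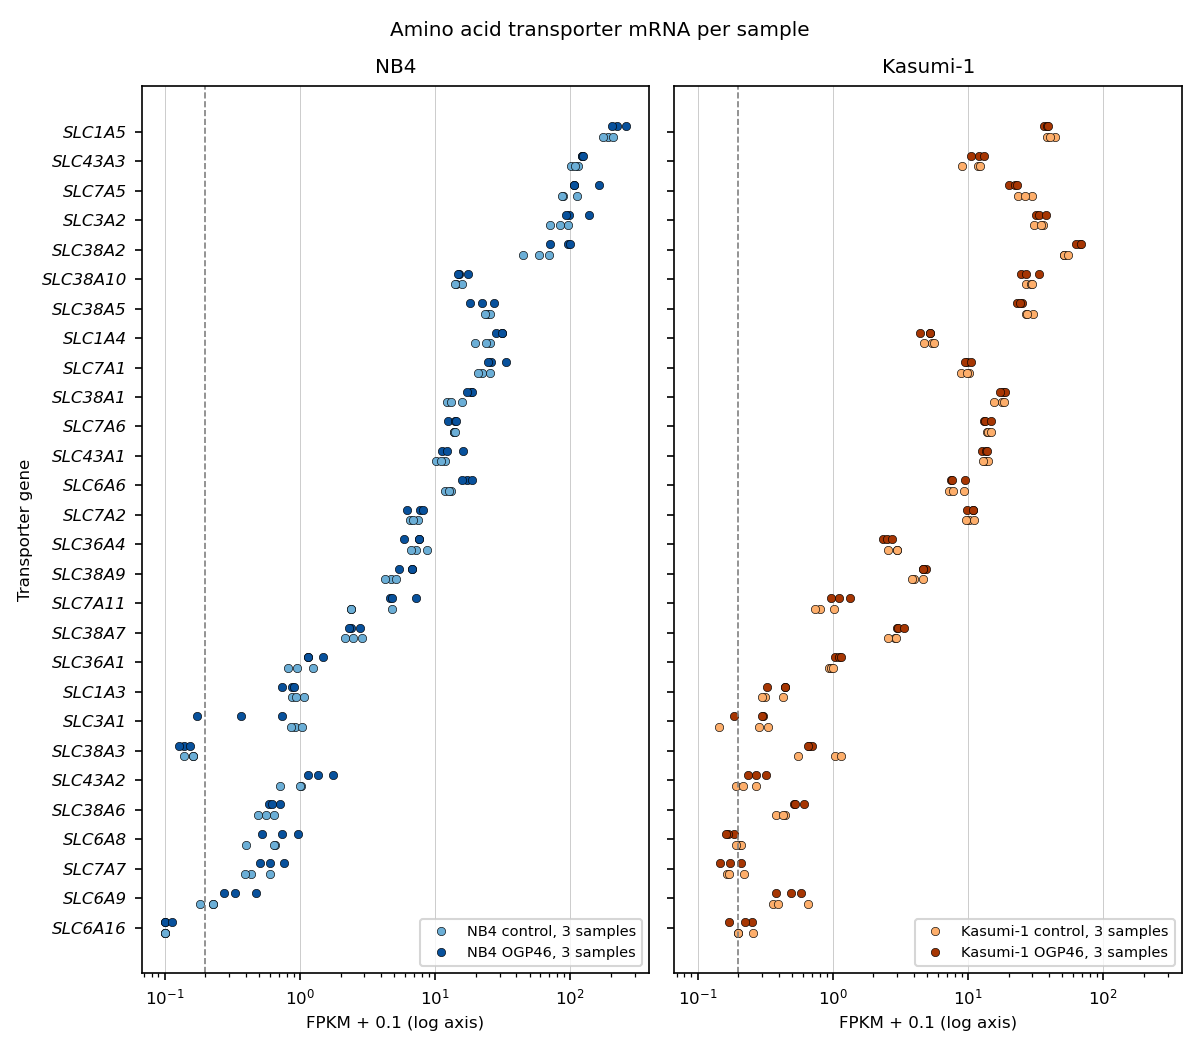
FPKM + 0.1 on a log axis for the 28 members that passed 0.1 FPKM in NB4 or Kasumi-1, with every sample as a point; the dashed line marks 0.1 FPKM. SLC1A5 is the highest member in NB4 and SLC38A2 the highest in the Kasumi-1 controls.

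The order of the levels differed between the lines. In NB4 controls, SLC1A5 stood first with 190.0 ± 15.4 FPKM, above 99.0% of all genes, and its samples lay apart from those of SLC43A3 (107 ± 6.10 FPKM). SLC43A3, SLC7A5 (95.7 ± 13.4 FPKM) and SLC3A2 (83.8 ± 12.5 FPKM) overlapped with their neighbours in this order, and SLC38A2 (57.7 ± 12.4 FPKM) came below them. Together these 5 genes made up 76.4% ± 0.601 of the FPKM of all members in NB4 controls, and the same genes made up 52.6% ± 0.929 in Kasumi-1 controls. In Kasumi-1 controls, SLC38A2 stood first with 52.4 ± 2.00 FPKM, followed by SLC1A5 (40.9 ± 3.02 FPKM) and SLC3A2 (33.6 ± 2.48 FPKM), each apart from the next. SLC38A10 (28.5 ± 1.50 FPKM), SLC38A5 (28.2 ± 1.94 FPKM) and SLC7A5 (26.4 ± 3.22 FPKM) overlapped with each other.

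The comparison of the control groups asks how the lines differed without OGP46. By limma on log2(FPKM + 0.1), where a call needs a p below 0.05 after Benjamini-Hochberg adjustment and a log2 difference no smaller than 0.58 in size (1.49-fold), 14 of the 27 members tested were higher in NB4 and 3 were lower. Among all 12302 genes tested, 22.7% were called higher and 29.7% lower in NB4. The members' median log2 difference was 0.64, and that of all genes was −0.10. Scaling moved the split over all genes from 2790 higher and 3659 lower to 3330 and 3162 with median centring and to 3585 and 3004 with TPM scaling, and the members then split 14 to 3 and 15 to 3. SLC38A3 and SLC7A7 passed the filter on low values only through the line in which they were high.

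All 3 members of SLC1 that were tested, among them carriers of glutamine and small neutral amino acids, were called higher in NB4. SLC1A5 measured 190.0, 205 and 175 FPKM in NB4 controls and 38.1, 44.1 and 40.5 FPKM in Kasumi-1 controls, a log2 difference of 2.21 ± 0.08 (SE; 4.63-fold, adjusted p = 7.77e-08 by limma). SLC1A4 (ASCT1), which carries alanine, serine, cysteine and threonine, measured 25.3, 19.6 and 23.7 FPKM in NB4 controls and 5.29, 5.51 and 4.64 FPKM in Kasumi-1 controls (log2 difference 2.13 ± 0.11, adjusted p = 3.92e-07 by limma). SLC1A3, a glutamate and aspartate carrier best known from glia, was low in both lines, at 0.966, 0.779 and 0.843 FPKM in NB4 controls and 0.326, 0.214 and 0.199 FPKM in Kasumi-1 controls (log2 difference 1.49 ± 0.19, adjusted p = 9.7e-05 by limma). For all 3 genes every NB4 control lay above every Kasumi-1 control. GENCODE release 29 places an antisense gene over 23.4% of the exon bases of SLC1A5 (chr19:46774883-46788594, minus strand), and whether the counting used strand is not given in the sources used here.

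The widest difference was that of SLC43A3, which carries purine nucleobases. Its 3 NB4 controls measured 113, 101 and 108 FPKM and its 3 Kasumi-1 controls 8.98, 11.9 and 12.2 FPKM (log2 difference 3.28 ± 0.12, 9.74-fold, adjusted p = 6.07e-08 by limma). Of the exon bases of SLC43A3 (chr11:57406954-57427580, minus strand), 29.9% also belong to AP000781.2, a gene model on the same strand. Its neighbour PRG2, the eosinophil granule major basic protein, was looked at after its values were seen, and measured 164, 75.5 and 272 FPKM in NB4 controls and 1.02, 2.98 and 0.913 FPKM in Kasumi-1 controls. SLC43A3 varied little between NB4 controls while PRG2 varied widely, and the part that shared exon bases play in the difference was not tested. SLC43A2 (LAT4), a facilitator of large neutral amino acids, measured 0.927, 0.899 and 0.611 FPKM in NB4 controls and 0.170, 0.0932 and 0.117 FPKM in Kasumi-1 controls (log2 difference 2.00 ± 0.22, adjusted p = 3.21e-05 by limma). SLC43A1 (LAT3), with the same kind of substrate, measured 9.98, 11.7 and 10.9 FPKM and 13.2, 13.9 and 12.9 FPKM and was not called, at a log2 difference of −0.30 ± 0.08.

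The heavy chain SLC3A2 and its main light chain were also higher in NB4. SLC3A2 measured 84.4, 96.0 and 70.9 FPKM in NB4 controls and 30.8, 35.6 and 34.5 FPKM in Kasumi-1 controls (log2 difference 1.31 ± 0.11, adjusted p = 7.17e-06 by limma). SLC7A5 measured 88.6, 111 and 87.4 FPKM in NB4 controls and 23.3, 29.7 and 26.3 FPKM in Kasumi-1 controls (log2 difference 1.85 ± 0.12, adjusted p = 1.14e-06 by limma). The groups did not overlap for either gene. The cystine exchanger SLC7A11 (chr4:138164097-138242349, minus strand) measured 4.70, 2.30 and 2.28 FPKM in NB4 controls, with the first sample well above the other two, and 0.708, 0.635 and 0.927 FPKM in Kasumi-1 controls (log2 difference 1.83 ± 0.27, adjusted p = 0.000252 by limma). SLC7A7, a light chain for basic and neutral amino acids, measured 0.504, 0.337 and 0.290 FPKM in NB4 controls and 0.0642, 0.121 and 0.0715 FPKM in Kasumi-1 controls (log2 difference 1.35 ± 0.23). SLC7A6, a light chain of the same kind, had nearly equal levels, with 13.7, 13.8 and 13.9 FPKM in NB4 controls and 13.7, 14.0 and 14.8 FPKM in Kasumi-1 controls, and a 95% interval of the log2 difference from −0.19 to 0.12. Of the exon bases of SLC7A6, 55.6% are shared with other genes, mostly with SLC7A6OS on the opposite strand.

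The summed FPKM of the 6 light chains of SLC3A2 was 113 ± 12.8 in NB4 controls and 41.5 ± 3.40 in Kasumi-1 controls. SLC7A5 made up 84.5% ± 2.40 of it in NB4 controls and 63.6% ± 2.78 in Kasumi-1 controls, and SLC7A11 2.79% ± 1.38 and 1.83% ± 0.387. SLC7A6 was the second light chain in both lines. Set against the heavy chain, the light chains summed to 1.36 ± 0.0973 times the FPKM of SLC3A2 in NB4 controls and to 1.23 ± 0.0161 times in Kasumi-1 controls, and the groups did not overlap.

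The stretches before the start sites of this pair are shown because both genes differed between the lines and the response of SLC7A5 to OGP46 was called different in 1 fit, given with its limits further on, and they were chosen after their values were seen. They are RefSeq sequence of GRCh38.p14 from the 250 bases upstream of a start site, without bases that GENCODE release 29 puts in an exon, for SLC3A2 chr11:62880646-62880871 on the plus strand and for SLC7A5 chr16:87869508-87869757 on the minus strand. The RefSeq start site of SLC3A2 that was used lies 24.8 kb inside the gene as GENCODE draws it, whereas that of SLC7A5 lies 19 bases upstream of the GENCODE gene. Where RefSeq gave several start sites, the one with the longest stretch free of exons was taken. Capitals mark CACGTG, the E-box bound by MYC, TFEB and TFE3.
SLC3A2: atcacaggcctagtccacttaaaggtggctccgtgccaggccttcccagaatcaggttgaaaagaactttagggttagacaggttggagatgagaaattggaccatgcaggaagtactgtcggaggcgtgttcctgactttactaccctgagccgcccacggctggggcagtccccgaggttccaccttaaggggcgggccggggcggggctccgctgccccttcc
SLC7A5: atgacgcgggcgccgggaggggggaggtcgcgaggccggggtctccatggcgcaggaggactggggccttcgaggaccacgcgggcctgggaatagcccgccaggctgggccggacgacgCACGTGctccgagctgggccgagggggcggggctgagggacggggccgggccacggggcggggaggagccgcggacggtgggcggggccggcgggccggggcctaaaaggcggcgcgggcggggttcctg
The E-box of SLC7A5 begins 130 bases before the start site. Searched on both strands, CACGTG occurred in 6.34% of all 35116 upstream windows of this length and in 9 of the 66 windows of members, 13.6%. TGATGNAAN, the form read by ATF4 with a C/EBP partner, occurred in 3.13% of all windows and in 2 of the members' windows, and TGACNNNGC, the form read by NRF2, in 10.9% and 6. SLC3A2 was among the members with the NRF2 form, at a place outside its printed stretch. These matches are a description of letters, and 44 of the 59 members had a window. The table holds no entry for SLC7A11 and SLC3A1.

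The cationic amino acid carriers split. SLC7A1 (CAT1), which takes up arginine and lysine, measured 22.2, 25.3 and 20.5 FPKM in NB4 controls and 8.77, 10.1 and 9.71 FPKM in Kasumi-1 controls (log2 difference 1.24 ± 0.10, adjusted p = 4.22e-06 by limma). SLC7A2 (CAT2), a relative with the same substrates, measured 7.37, 6.40 and 6.72 FPKM in NB4 controls and 10.1, 9.62 and 11.0 FPKM in Kasumi-1 controls. All 3 Kasumi-1 controls lay above the NB4 controls, and the log2 difference of −0.58 ± 0.09 (adjusted p = 0.000361 by limma) fell just short of the minimum of 0.58 before rounding, so SLC7A2 was not called. It was called lower in NB4 at a pseudocount of 0.01 and without the first NB4 control or without the first or second Kasumi-1 control. SLC3A1, the heavy chain of the kidney carrier for cystine and basic amino acids, measured 0.825, 0.938 and 0.767 FPKM in NB4 controls and 0.185, 0.0430 and 0.230 FPKM in Kasumi-1 controls (log2 difference 1.98 ± 0.30, adjusted p = 0.000285 by limma). Its light chain SLC7A9 stayed below the filter in both lines.

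Of the 3 members that were lower in NB4, SLC38A3 and SLC38A10 belong to SLC38, the family of the sodium-coupled neutral amino acid carriers. SLC38A2 (SNAT2), the sodium-coupled carrier known for its induction by amino acid shortage, measured 69.7, 44.9 and 58.4 FPKM in NB4 controls and 51.6, 50.9 and 54.6 FPKM in Kasumi-1 controls, with a 95% interval of the log2 difference from −0.20 to 0.43. SLC38A10 measured 14.2, 15.8 and 14.0 FPKM in NB4 controls and 26.8, 29.1 and 29.6 FPKM in Kasumi-1 controls, lower in NB4 by limma (log2 difference −0.95 ± 0.08, adjusted p = 5.71e-06). SLC38A3 (SNAT3), a system N carrier of glutamine, was near 0 in NB4 controls (0.0395, 0.0632 and 0.0616 FPKM) and low in Kasumi-1 controls (0.943, 1.06 and 0.450 FPKM; log2 difference −2.50 ± 0.28, adjusted p = 4.51e-05 by limma). The other system N carrier, SLC38A5 (SNAT5), measured 23.9, 25.4 and 23.3 FPKM and 26.8, 30.4 and 27.3 FPKM, and was not called at a log2 difference of −0.22 ± 0.08. SLC38A1 (SNAT1) measured 15.6, 12.1 and 12.9 FPKM and 17.7, 18.3 and 15.5 FPKM, also not called (−0.34 ± 0.11). For SLC38A1 the first NB4 control lay within the range of the Kasumi-1 controls.

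The lysosomal carriers SLC38A9, SLC38A7 and SLC36A1 were not called. SLC38A9, the arginine sensor that signals to mTORC1, measured 4.62, 5.04 and 4.17 FPKM in NB4 controls and 4.57, 3.90 and 3.78 FPKM in Kasumi-1 controls. SLC38A7, a lysosomal glutamine exporter, measured 2.04, 2.76 and 2.36 FPKM and 2.78, 2.84 and 2.47 FPKM. SLC36A1 (PAT1), which couples amino acid export to protons, measured 0.855, 1.14 and 0.710 FPKM and 0.845, 0.872 and 0.904 FPKM. Their groups overlapped, and the 95% intervals of the log2 differences ran from −0.09 to 0.43, from −0.48 to 0.13 and from −0.39 to 0.43. SLC36A4 (PAT4) was called, with 7.15, 8.55 and 6.58 FPKM in NB4 controls and 2.46, 2.88 and 2.88 FPKM in Kasumi-1 controls (log2 difference 1.40 ± 0.12, adjusted p = 8.47e-06 by limma).

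Of SLC6, SLC6A6 (TauT), the taurine carrier, was the only member above 1 FPKM. It measured 13.1, 11.8 and 12.6 FPKM in NB4 controls and 7.15, 7.69 and 9.24 FPKM in Kasumi-1 controls, a log2 difference of 0.64 ± 0.11 (adjusted p = 0.000482 by limma) that came to 0.56 and lost its call without the first Kasumi-1 control. The creatine carrier SLC6A8 measured 0.559, 0.297 and 0.543 FPKM and 0.105, 0.108 and 0.0942 FPKM and was called higher in NB4 (1.45 ± 0.23). The glycine carrier SLC6A9 (GlyT1) measured 0.129, 0.128 and 0.0839 FPKM and 0.263, 0.551 and 0.294 FPKM and was called lower in NB4 (−1.09 ± 0.26). For both genes the groups did not overlap, at levels below 1 FPKM.

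**Figure D3:**
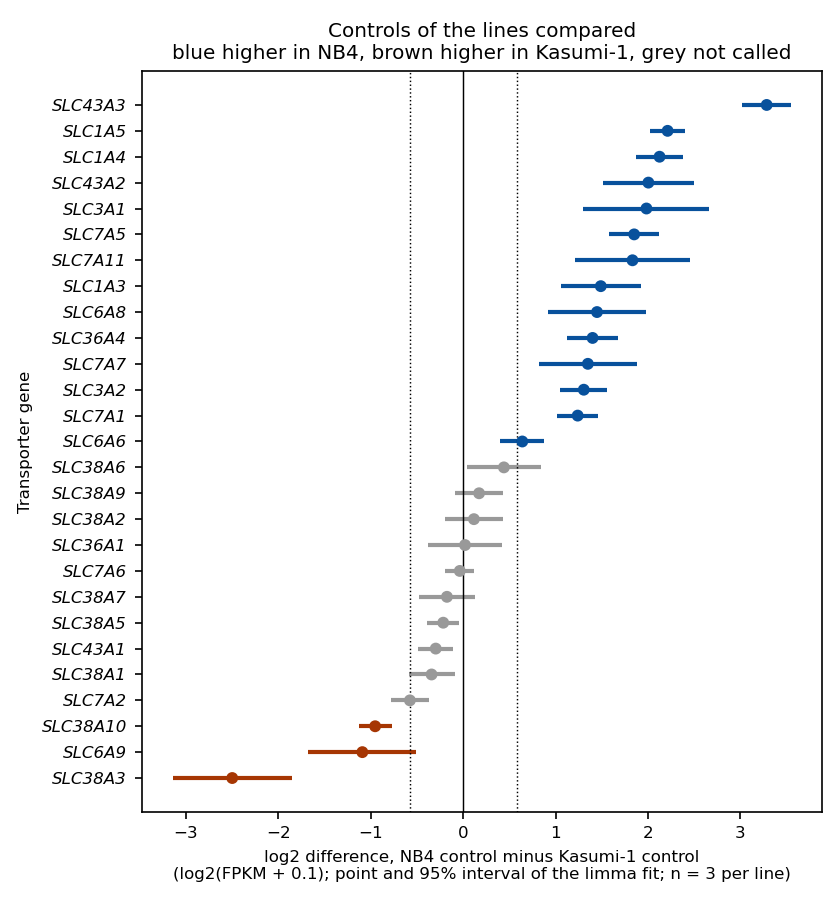
Log2 difference between NB4 controls and Kasumi-1 controls for the 27 members tested, as the estimate (points) and 95% interval (lines) of the limma fit with n = 3 per line; dotted lines mark 0.58 on either side of 0. The 14 blue members were called higher in NB4, with SLC43A3 at 3.28, and the 3 brown members lower, with SLC38A3 at −2.50.

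The comparison of OGP46 with control in NB4 asks which carriers changed with the compound. Without regard to sample numbers, 0 of the 26 members tested were called higher and 0 lower by limma, where 1.45% of all 11750 genes were called higher (170) and 0.111% lower (13). At an unadjusted p below 0.05 and the same minimum change, 4 members were higher and 1 was lower, as were 527 and 136 of the 11750 genes. The study names no pairing. The numbers 1 to 3 of the labels were taken to pair control and OGP46 samples within a line, because same-numbered samples shared deviations across genes. This was judged from these same data, and the calls with the block rest on it. In NB4, OGP46 sample 3 correlated more with control 1 (0.224) than with control 3 (0.197). With the sample number as a block, 3 members were called higher, SLC38A2, SLC7A11 and SLC43A2, and 1 lower, SLC3A1. In that fit 5.06% of all genes were called higher and 1.15% lower. With median centring besides the block, SLC7A11 and SLC3A1 kept their calls, and so they did with TPM scaling and with quantile normalization, while the calls of SLC38A2 and SLC43A2 were lost under each.

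**Figure D4:**
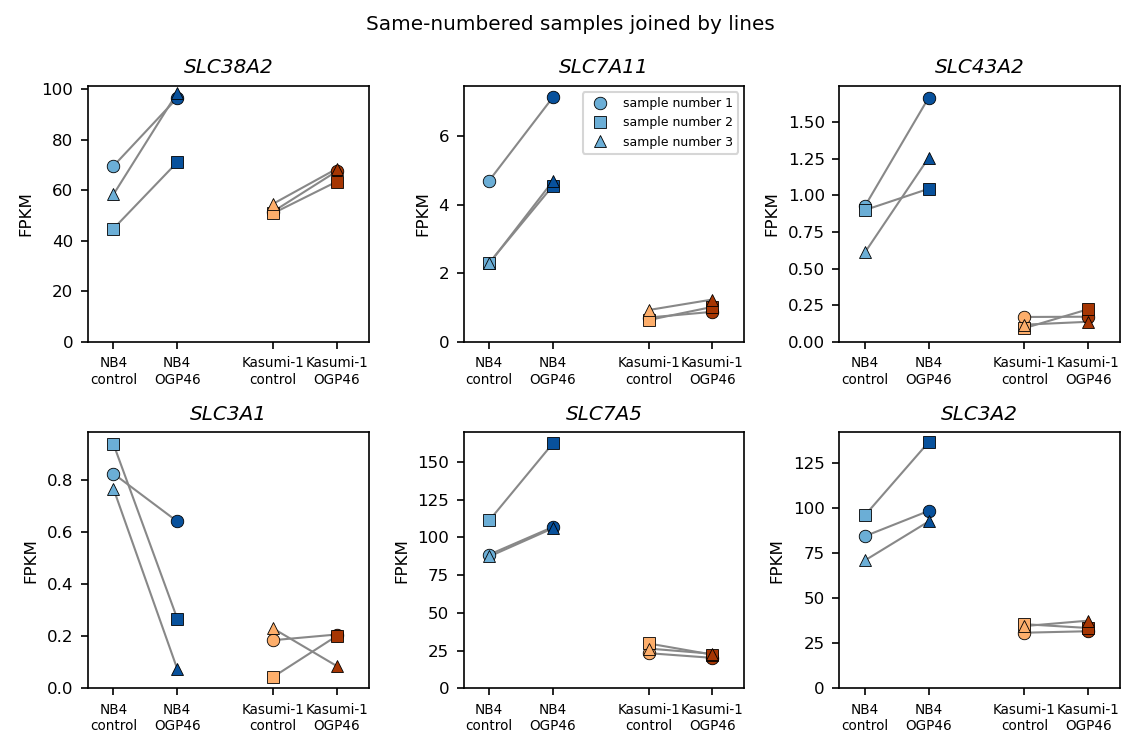
FPKM of 6 members in every sample, with same-numbered control and OGP46 samples joined by a line; circles, squares and triangles mark sample numbers 1, 2 and 3. In NB4 the lines of SLC38A2, SLC7A11, SLC43A2, SLC7A5 and SLC3A2 rise in 3 of 3 pairs and those of SLC3A1 fall in 3 of 3, and in Kasumi-1 the lines of SLC7A5 fall in 3 of 3.

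SLC7A11 measured 4.70, 2.30 and 2.28 FPKM in NB4 controls and 7.13, 4.55 and 4.69 FPKM with OGP46. The first control was about as high as OGP46 samples 2 and 3, so the groups overlapped, whereas each OGP46 sample lay above the control of its own number, by 0.59, 0.95 and 1.01 on the log2 scale. The log2 fold change was 0.85 ± 0.29 (SE; 1.80-fold), with an adjusted p of 0.109 by limma without the block and of 0.000589 with it (SE 0.11). Leaving out any single NB4 sample from the blocked fit left it between 0.77 and 0.98, called each time. In Kasumi-1, SLC7A11 measured 0.708, 0.635 and 0.927 FPKM in controls and 0.874, 1.02 and 1.23 FPKM with OGP46, and the change of 0.42 ± 0.18 on the log2 scale was not called (adjusted p = 0.298 without the block and 0.107 with it, by limma). The difference between the lines, 0.43 with a 95% interval from −0.38 to 1.24, was not called either.

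SLC38A2 measured 69.7, 44.9 and 58.4 FPKM in NB4 controls and 96.7, 71.2 and 98.7 FPKM with OGP46, and the groups did not overlap. The pairs rose by 0.47, 0.66 and 0.76 on the log2 scale, and the log2 fold change was 0.63 ± 0.18 (1.55-fold, adjusted p = 0.0816 by limma, 0.000561 with the block). Without either sample of number 3 the blocked value was 0.57 and below the minimum, and without the second OGP46 sample the fit without the block called it (0.78, adjusted p = 0.0404). With median centring and the block it came to 0.41 ± 0.05 (adjusted p = 0.00412 by limma), below the minimum change. In Kasumi-1, SLC38A2 measured 51.6, 50.9 and 54.6 FPKM in controls and 67.6, 63.5 and 68.6 FPKM with OGP46. These groups did not overlap either, and the change of 0.34 ± 0.06 (adjusted p = 0.0611 by limma, 0.0126 with the block) stayed below the minimum of 0.58. The lines differed by 0.29 in this change, with a 95% interval from −0.16 to 0.73.

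SLC43A2 measured 0.927, 0.899 and 0.611 FPKM in NB4 controls and 1.67, 1.04 and 1.26 FPKM with OGP46, without overlap. Its log2 fold change was 0.64 ± 0.22 (adjusted p = 0.110 by limma, 0.0210 with the block), and the pairs rose by 0.78, 0.20 and 0.93. The blocked call was lost without either sample of number 1 (0.56) and of number 3 (0.49). In Kasumi-1 it stayed near the filter, at 0.170, 0.0932 and 0.117 FPKM in controls and 0.171, 0.222 and 0.137 FPKM with OGP46.

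SLC3A1 (chr2:44275458-44321494, plus strand) was the member called lower with the block. It measured 0.825, 0.938 and 0.767 FPKM in NB4 controls and 0.641, 0.268 and 0.0746 FPKM with OGP46, so the groups lay apart and the OGP46 samples spread widely. The log2 fold change was −1.38 ± 0.45 (adjusted p = 0.104 by limma, 0.00885 with the block), and ranged from −1.90 without a sample of number 1 to −0.91 without a sample of number 3, called each time with the block. All of these values lay below 1 FPKM. Of its exon bases 54.6% are shared with other genes, mostly with PREPL on the opposite strand, which measured 12.0, 11.0 and 9.96 FPKM in NB4 controls and 11.5, 12.2 and 11.1 FPKM with OGP46. The PREPL groups overlapped. In Kasumi-1, SLC3A1 measured 0.185, 0.0430 and 0.230 FPKM in controls and 0.207, 0.201 and 0.0859 FPKM with OGP46, and these overlapped.

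Stretches before RefSeq start sites are shown for SLC38A2 and SLC43A2, which were called in NB4 with the block, to put their sequence beside the change. They come from the same RefSeq table and were trimmed in the same way, for SLC38A2 at chr12:46372868-46373023 and for SLC43A2 at chr17:1628417-1628666, both on the minus strand. Neither stretch held any of the 3 motifs, so there are no capitals. Bases after the start site or farther upstream were not searched, so motifs elsewhere in these genes remain unknown here.
SLC38A2: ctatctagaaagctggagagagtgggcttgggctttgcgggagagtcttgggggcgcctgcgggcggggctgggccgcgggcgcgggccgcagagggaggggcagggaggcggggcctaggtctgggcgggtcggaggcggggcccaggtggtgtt
SLC43A2: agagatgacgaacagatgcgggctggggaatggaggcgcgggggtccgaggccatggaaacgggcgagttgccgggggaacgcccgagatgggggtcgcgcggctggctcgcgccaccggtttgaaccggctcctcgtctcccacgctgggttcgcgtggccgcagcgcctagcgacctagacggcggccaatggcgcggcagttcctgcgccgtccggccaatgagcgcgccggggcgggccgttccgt
The stretch of SLC38A2 ends 95 bases before its RefSeq start site, where the exons of GENCODE begin. The start site used for SLC43A2 lies 470 bases inside the GENCODE gene, so its stretch lies inside that gene.

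Most members, like most genes, had a positive log2 fold change in NB4. The log2 fold change was above 0 for 21 of the 26 members and for 81.9% of all genes, with medians of 0.32 and 0.18. With median centring, 16 of 26 members and 40.6% of all genes were above 0, with medians of 0.10 and −0.04. OGP46 samples lay above all controls for 8 members (32.7% of all genes) and below all controls for 1 member (1.91% of all genes). The OGP46 sample was the higher one in 3 of 3 pairs for 18 members, 69.2%, and for 52.9% of all genes. The log2 fold change of SLC43A3 was 0.20 ± 0.07 and turned to −0.03 with median centring.

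SLC6A6 was the member with the smallest adjusted p without the block. It measured 13.1, 11.8 and 12.6 FPKM in NB4 controls and 17.2, 15.7 and 18.6 FPKM with OGP46, without overlap, and its log2 fold change of 0.45 ± 0.09 (1.37-fold, adjusted p = 0.0462 by limma) was below the minimum of 0.58. In Kasumi-1 it measured 7.15, 7.69 and 9.24 FPKM and 7.40, 7.52 and 9.48 FPKM, a log2 fold change of 0.02 ± 0.12. SLC6A9 had a larger but less certain change in NB4, from 0.129, 0.128 and 0.0839 FPKM to 0.231, 0.372 and 0.174 FPKM (0.72 ± 0.28, adjusted p = 0.141 by limma, 0.0689 with the block). The groups did not overlap, and the highest value was 0.372 FPKM.

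The glutamine carriers SLC1A5 and SLC38A1 and their relative SLC1A4 had positive log2 fold changes in NB4, and under each scaling as well. SLC1A5 measured 223, 259 and 203 FPKM with OGP46, against the control values given above, and its log2 fold change was 0.26 ± 0.11 (adjusted p = 0.148 by limma, 0.0266 with the block). SLC1A4 measured 31.3, 28.1 and 31.1 FPKM with OGP46 (0.41 ± 0.11, adjusted p = 0.0742 by limma, 0.00706 with the block). SLC38A1 measured 18.5, 18.7 and 17.3 FPKM with OGP46 (0.43 ± 0.11, adjusted p = 0.0692 by limma, 0.0105 with the block). Each of these was higher in 3 of 3 pairs and below the minimum change. SLC38A5 measured 18.2, 27.1 and 22.1 FPKM with OGP46, higher than its control in 1 of 3 pairs (−0.13 ± 0.14).

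The heavy chain and its main light chain had log2 fold changes of the same size in NB4. SLC7A5 (chr16:87830023-87869488, minus strand) measured 107, 162 and 106 FPKM with OGP46, which was a change of 0.37 ± 0.17 (adjusted p = 0.198 by limma, 0.0106 with the block). SLC3A2 (chr11:62856102-62888875, plus strand) measured 98.4, 137 and 92.6 FPKM (0.37 ± 0.16, adjusted p = 0.172 by limma, 0.00942 with the block). The second sample was the highest of its group for both genes, in controls and with OGP46. The ratio of SLC7A5 to SLC3A2 was 1.05, 1.16 and 1.23 in NB4 controls and 1.09, 1.19 and 1.15 with OGP46, so the ranges overlapped.

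The arginine carrier SLC7A1 measured 25.9, 33.6 and 24.5 FPKM in NB4 with OGP46 (0.30 ± 0.13, adjusted p = 0.181 by limma, 0.0281 with the block), and SLC7A2 measured 6.06, 7.67 and 8.02 FPKM (0.08 ± 0.13). SLC43A1 measured 11.2, 15.9 and 12.2 FPKM (0.26 ± 0.14) and SLC43A3 121, 123 and 124 FPKM. The light chains SLC7A6 and SLC7A7 measured 12.3, 14.0 and 14.2 FPKM (−0.03 ± 0.09) and 0.668, 0.403 and 0.501 FPKM (0.39 ± 0.25). None of these reached the minimum change. Of the lysosomal carriers, SLC38A9 measured 6.60, 5.27 and 6.62 FPKM, above every control (0.41 ± 0.13, adjusted p = 0.0933 by limma, 0.0316 with the block). SLC38A7 measured 2.30, 2.70 and 2.23 FPKM (0.02 ± 0.14) and SLC36A1 1.05, 1.38 and 1.04 FPKM (0.34 ± 0.20). SLC36A4 and SLC1A3 had a negative sign, at 5.77, 7.50 and 7.47 FPKM (−0.10 ± 0.14) and 0.772, 0.639 and 0.799 FPKM (−0.20 ± 0.16). The remaining members were SLC38A10 at 14.9, 17.5 and 14.7 FPKM (0.09 ± 0.10), SLC6A8 at 0.636, 0.423 and 0.865 FPKM (0.38 ± 0.29) and SLC38A6, whose 12 values lay between 0.279 and 0.619 FPKM.

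In Kasumi-1, 0 of the 26 members were called higher and 0 lower with OGP46, without and with the block. By limma without the block, 0.0169% of all 11835 genes were called higher and 0.0169% lower, and with the block 0.270% and 0.346%. At an unadjusted p below 0.05 and the minimum change, 0 members passed in either direction, and of the 11835 genes 76 passed higher and 67 lower. The median log2 fold change was 0.04 for the members and 0.05 for all genes. OGP46 samples lay above all controls for 4 members (17.4% of all genes), SLC36A1, SLC38A2, SLC38A6 and SLC38A7, and below all controls for 2 members (5.23% of all genes), SLC38A5 and SLC7A5.

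SLC7A5 measured 23.3, 29.7 and 26.3 FPKM in Kasumi-1 controls and 20.2, 22.3 and 22.9 FPKM with OGP46. It was lower in 3 of 3 pairs, at a log2 fold change of −0.27 ± 0.09 (adjusted p = 0.203 by limma, 0.0487 with the block) that stayed below the minimum. SLC3A2 measured 31.7, 33.4 and 37.5 FPKM with OGP46, and its change of 0.02 ± 0.08 turned to −0.04 with median centring. SLC38A5 measured 26.8, 30.4 and 27.3 FPKM and 23.0, 25.1 and 24.3 FPKM, also lower in 3 of 3 pairs (−0.22 ± 0.07, adjusted p = 0.173 by limma, 0.0600 with the block). SLC1A5 measured 36.2, 38.4 and 39.0 FPKM with OGP46 (−0.11 ± 0.07), SLC1A4 5.11, 5.11 and 4.36 FPKM (−0.08 ± 0.10) and SLC38A1 18.1, 18.8 and 17.1 FPKM (0.07 ± 0.08). Their control and OGP46 values overlapped.

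Of the remaining members in Kasumi-1, SLC38A10 measured 24.4, 27.0 and 33.6 FPKM with OGP46 (−0.02 ± 0.11), SLC7A6 13.1, 13.4 and 14.7 FPKM (−0.05 ± 0.07) and SLC43A1 12.6, 13.4 and 13.7 FPKM (−0.01 ± 0.07). SLC43A3 measured 10.5, 12.0 and 13.1 FPKM (0.11 ± 0.12), SLC7A2 10.8, 9.72 and 10.7 FPKM (0.03 ± 0.08) and SLC7A1 9.69, 9.49 and 10.5 FPKM (0.05 ± 0.08). None of these 6 was called, and control and OGP46 values overlapped for each. The lysosomal carriers had positive values, with SLC38A9 at 4.82, 4.53 and 4.57 FPKM (0.19 ± 0.09), SLC38A7 at 2.87, 2.92 and 3.29 FPKM (0.16 ± 0.10) and SLC36A1 at 0.945, 1.02 and 1.05 FPKM (0.18 ± 0.13). SLC36A4 measured 2.26, 2.42 and 2.66 FPKM (−0.16 ± 0.11). SLC38A3 measured 0.570, 0.604 and 0.554 FPKM (−0.37 ± 0.26), lower in 2 of 3 pairs, and was called lower with the block when either sample of number 3 was left out (−0.68, adjusted p = 0.0174 and 0.0190 by limma). SLC1A3, SLC3A1, SLC6A9, SLC6A16, SLC38A6 and SLC43A2 stayed below 1 FPKM in every Kasumi-1 sample, with log2 fold changes between −0.02 and 0.41.

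**Figure D5:**
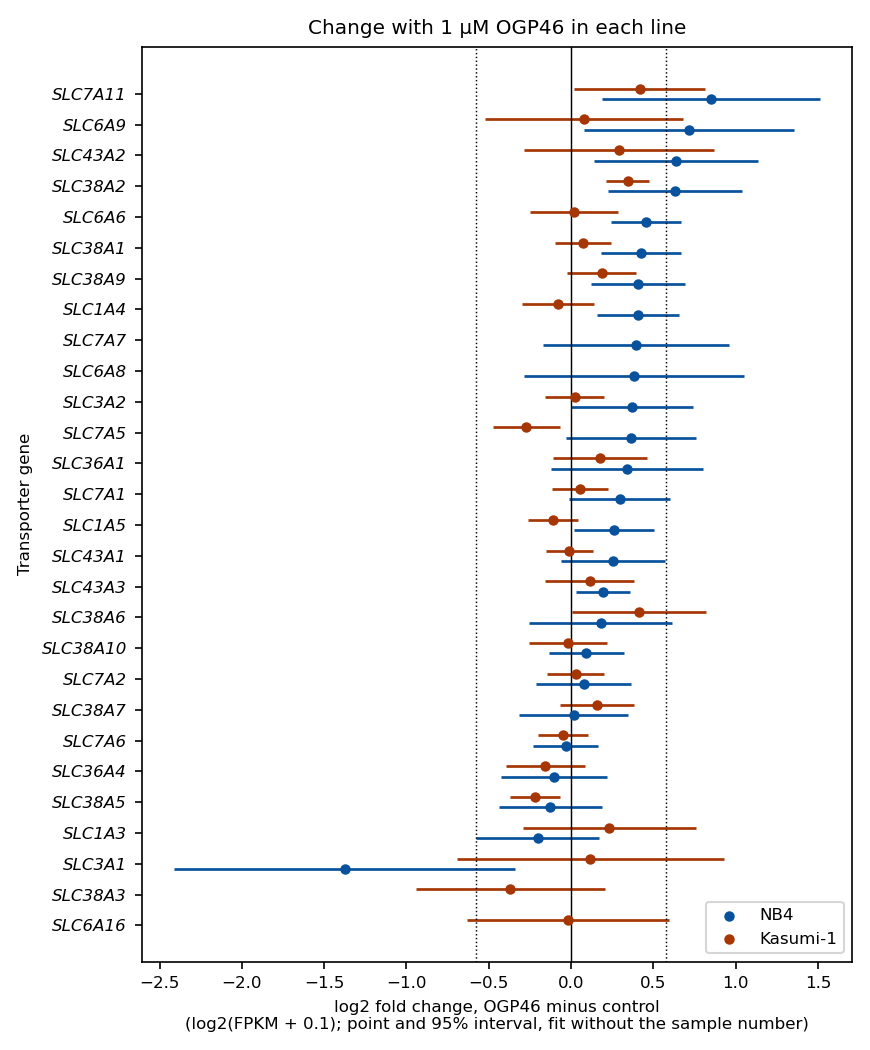
Log2 fold change with OGP46 in NB4 (blue) and Kasumi-1 (brown), as the estimate (points) and 95% interval (lines) of the limma fit without the sample number, for members tested in NB4 or Kasumi-1; dotted lines mark 0.58 on either side of 0. No member was called in this fit, and SLC7A11 at 0.85 and SLC3A1 at −1.38 in NB4 lie farthest from 0.

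Whether the change differed between the lines was tested as the interaction of line and treatment over the 12 samples. By limma without the block, 0 of the 27 members tested had a larger log2 fold change in NB4 and 0 a smaller one. The same held for all 12309 genes tested (0% and 0%). At an unadjusted p below 0.05 and a difference of at least 0.58, 1 member passed in each direction, while 369 of all genes passed higher and 86 lower. With the block, 1 member, SLC7A5, was called, while 1.40% of all genes were called in this direction and 0.106% in the other. The log2 fold change of SLC7A5 was larger in NB4 by 0.64 ± 0.22 (adjusted p = 0.328 without the block and 0.0209 with it, by limma), with a positive value in 3 of 3 NB4 pairs and a negative one in 3 of 3 Kasumi-1 pairs. With the block and median centring the difference was 0.49 (adjusted p = 0.0464), below the minimum. Leaving out 1 sample from the fit with the block gave 0.55 to 0.69 (adjusted p = 0.0404 to 0.1 by limma), and the call was lost without any of the 6 Kasumi-1 samples and without either NB4 sample of number 2 (0.55). SLC1A4 had an adjusted p of 0.0374 by limma with the block, at a difference of 0.49 below the minimum.

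Genes that act beside the carriers were counted from 4 lists. Of the amino acid response and ATF4 target genes, 4 of 19 tested were called higher in NB4 with OGP46 (ASNS, CEBPB, DDIT4 and TRIB3) and 8 with the block, where 1.45% and 5.06% of all genes were called higher. Their median log2 fold change was 0.51, and that of all genes 0.18. With median centring, TPM scaling or quantile normalization 0 genes of any list were called in NB4 without the block, and with it 5, 6 and 5 genes of this list were called higher, ASNS among them each time. ASNS, the asparagine synthetase, measured 15.4, 13.1 and 11.9 FPKM in NB4 controls and 25.2, 29.5 and 19.9 FPKM with OGP46 (0.87 ± 0.15, adjusted p = 0.0364 by limma). ATF4 itself was at 0.19 ± 0.07 and was not called. Of the genes of cystine use, glutathione and NRF2, 3 of 13 were called higher in NB4, with and without the block. These were HMOX1 (heme oxygenase), NQO1 (a quinone reductase) and GCLM (a subunit of the enzyme that begins glutathione synthesis), at log2 fold changes of 2.34 ± 0.42, 1.01 ± 0.15 and 0.70 ± 0.12. With the block and each of these scalings, HMOX1 and NQO1 kept their calls and GCLM lost its call. Of the genes of mTORC1 amino acid sensing 0 of 22, and of amino acid carriers outside the families 0 of 13, were called in NB4 by either fit. With the block and each of these scalings, however, SESN3 of the mTORC1 list was called lower in NB4. In Kasumi-1 0 genes of the 4 lists were called without the block, and NQO1 and CASTOR1, an arginine sensor, were called higher with it. With the same scalings besides the block, NQO1 kept its call each time and CASTOR1 with TPM scaling only. In the interaction with the block, ASNS, ATF5, DDIT4 and SESN2 had a larger change in NB4 and SESN3 a smaller one, and without it 0 genes of the 4 lists were called. With these scalings besides the block, SESN3 kept its call each time and ASNS with quantile normalization only. ATF5, DDIT4 and SESN2 lost theirs under each.

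Cell type markers moved in NB4 as well. By flow cytometry after a longer treatment, the study reported higher CD11b (the product of ITGAM) and CD14 on NB4 cells, as markers of myeloid differentiation. Of the monocyte and macrophage markers, 4 of 9 tested were called higher with OGP46 (C5AR1, CD68, ITGAM and ITGAX), where 1.45% of all genes were. With the block, 6 were called higher, CD14 and CSF1R besides these 4, and 1, CCR2, was called lower. In that fit 5.06% of all genes were called higher and 1.15% lower. CD68 and CSF1R lost their calls with the block and median centring, TPM scaling or quantile normalization. The summed level of the list was 290.1 to 412 FPKM in NB4 controls and 292 to 399 FPKM with OGP46, of which LYZ made up at least 89.2% in every NB4 sample. Without LYZ, the sum was 20.7, 19.7 and 18.3 FPKM in NB4 controls and 37.8, 29.9 and 31.8 FPKM with OGP46, so the groups did not overlap. ITGAM averaged 2.74 FPKM in controls and 5.93 FPKM with OGP46, and C5AR1 1.11 and 4.64 FPKM. CCR2 went the other way, from 1.89 to 0.997 FPKM, and LYZ averaged 318 and 314 FPKM. CD163 and MRC1 were listed at 0 in all NB4 samples. The part of these markers in the carriers' values was not tested. In bulk RNA, fewer cells of a type and less RNA per cell cannot be told apart. The lists of late neutrophil, lymphoid, erythroid and megakaryocytic, and stromal and epithelial markers held 0 called genes in NB4 without the block. With the block, CD3D of the lymphoid list and KRT8 and PECAM1 of the stromal and epithelial list were called higher. KRT8 lost its call with the block and median centring, TPM scaling or quantile normalization. CD3D and PECAM1 kept theirs with TPM scaling only. ITGA2B of the erythroid and megakaryocytic list was called lower with the block and median centring or quantile normalization. Of the granule genes listed for NB4, AZU1, CTSG, ELANE and PRTN3 were called lower with the block, as was CD34 of the Kasumi-1 list. With the block and median centring, TPM scaling or quantile normalization, CD34 lost its call and these granule genes kept theirs. Among NB4 controls, number 3 was the highest for CD34 (0.0601, 0.154 and 1.31 FPKM) and ELANE (0.504, 3.30 and 14.5 FPKM). Number 2 was the highest for AZU1, CTSG and PRTN3. Between the control groups, 6 of the 13 carriers outside the families were called lower in NB4 and 1 higher, where 29.7% of all genes were called lower and 22.7% higher. With TPM scaling or median centring 4 were lower and 2 higher, and with quantile normalization 3 and 1.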

How the data were processed

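mRNA-seq of 12 samples, 3 in each of 4 groups, was used, and samples were put in groups by the labels' cell line and treatment. Per the labels, poly(A) mRNA was enriched with oligo(dT) and libraries were made with a stranded kit. The authors deposited 1 FPKM value per gene symbol and sample. The submitters' processing notes name Trimmomatic, HISAT2, Cufflinks, HTSeq and the build hg38, without roles, and the annotation and the use of strand are not given in the sources used here. Of the FPKM values, 632 lay above 0 and below 1e-04, so whole reads could not be recovered, the depth is unknown, and precision rests on 3 samples a group. Dates stood in place of 27 symbols per sample. These rows were dropped, and 20003 genes stayed. No 2 samples held the same values.

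Comparisons were made by limma 3.58.1 in R 4.3.3 on log2(FPKM + 0.1), moderated by empirical Bayes with a trend, over genes that averaged 0.1 FPKM or more in the samples compared. P-values were adjusted by the Benjamini-Hochberg method over all genes tested, and a gene was called at an adjusted p below 0.05 and a log2 change of at least 0.58 in size, the thresholds of the study's methods. All p-values are two-sided. The step was also run on simulated data with planted changes. All of these were larger than 0.58 in size, so calls near the minimum were not checked in this way.

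The study's methods name no pairing, so results come first without the replicate number. The sample numbers come from the labels. A control and the OGP46 sample of its number shared deviations from their group means, with correlations of 0.355, 0.622 and 0.197 in NB4 and of 0.218, 0.157 and 0.396 in Kasumi-1, all above 0.1. Of the 6 pairs of unlike number in each line, 2 in NB4 (0.224 and 0.175) and 1 in Kasumi-1 (0.101) were also above 0.1, and NB4 OGP46 sample 3 correlated more with control 1 than with the control of its own number. Every same-numbered pair was above 0.1, so the replicate number was taken to pair them and was used as a block in a further fit. Between the control groups of the lines the correlations were −0.0487, 0.0176 and −0.0047, so the numbers do not pair these.

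All members are named or counted, and single values are given for members with a group mean of at least 1 FPKM or a call in any comparison. Members and lists were chosen with earlier results of these data known. Gene positions and exon overlaps are from GENCODE release 29. Alternatives were pseudocounts of 1 and 0.01, no filter and a minimum of 1 FPKM, scaling to TPM, centring on the median, quantile normalization, no trend, the block, and leaving out each sample. The block with quantile normalization, the block with a sample left out, the lists under other scalings, and the neighbours PREPL, PRG2 and SLC7A6OS were added after seeing the data.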

Additional observations from a re-analysis of the deposited data

Results flagged for a closer look

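The change of SLC7A5 with OGP46 differed between the lines in the fit with the replicate block. Its log2 fold change was 0.64 larger in NB4 than in Kasumi-1 (SE 0.10, adjusted p = 0.0209 by limma), with higher OGP46 values in 3 of 3 NB4 pairs and lower ones in 3 of 3 Kasumi-1 pairs. Without the block the adjusted p was 0.328. With the block and median centring, TPM scaling or quantile normalization the difference was 0.49, 0.49 and 0.53, below the minimum of 0.58. With the block and 1 sample left out it lay between 0.55 and 0.69, and 8 of the 12 omissions ended the call, those of each Kasumi-1 sample and of either NB4 sample of number 2. In this fit, leaving out either sample of a pair takes the whole pair out of the estimate. The 2 omissions of a pair are therefore not separate checks.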

How the results depend on the processing

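In NB4, the count of members higher with OGP46 was 0 without the block, 3 with the replicate block, and 1 with the block and median centring, TPM scaling or quantile normalization, and it ranged from 0 to 1 when a sample was left out without the block. The count of members lower was 0 without the block and 1 in each of these 4 fits with the block. The count of members with a larger change in NB4 than in Kasumi-1 was 1 with the replicate block, and 0 to 1 with the block and 1 sample left out. It was 0 under the other settings. Between the controls, a minimum mean of 1 FPKM left 18 members to test, of which 9 were higher and 1 lower in NB4, because fewer members were tested. SLC6A8, SLC6A9 and SLC7A7 lost their calls at a pseudocount of 1 (0.41, −0.29 and 0.34). The replicate block, used between the controls although the numbers do not pair them, gave 14 and 3 again. It changed no other call of a member. Over all genes in NB4, 170 higher and 13 lower calls became 595 and 135 with the block, 188 and 203 with the block and median centring, 309 and 139 with the block and TPM scaling, and 218 and 179 with the block and quantile normalization. Without the block each of these scalings gave 0 and 0, where the smallest adjusted p was 0.0594, and at an unadjusted p below 0.05 and the same minimum change 282 and 172 genes passed with TPM scaling, 159 and 252 with median centring and 212 and 207 with quantile normalization. The cause of these shifts was not tested. As the depth is unknown, members near 0.1 FPKM carry no stated counting error.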

Other observations

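The balance of SLC7A5 and its heavy chain SLC3A2 was looked at after the values were seen, and is given as a description. The ratio of their FPKM was 0.755, 0.836 and 0.763 in Kasumi-1 controls and 0.638, 0.667 and 0.610 in Kasumi-1 with OGP46, so every OGP46 sample lay below every control. The 6 light chains together had 1.23, 1.25 and 1.22 times the FPKM of SLC3A2 in Kasumi-1 controls and 1.08, 1.10 and 1.04 times with OGP46. In NB4 this ratio was 1.27, 1.33 and 1.46 in controls and 1.29, 1.33 and 1.36 with OGP46, and the groups overlapped. Within the light chains of Kasumi-1, the share of the cystine exchanger SLC7A11 was 1.87%, 1.43% and 2.20% in controls and 2.55%, 2.77% and 3.17% with OGP46, again without overlap, while that of SLC7A5 was 63.6% ± 2.78 (SD, n = 3) and 59.5% ± 1.04. Each of these is a ratio between genes of the same sample and shows unequal change only. With 3 samples a side, the smallest two-sided p of an exact permutation test is 0.10, so none was run.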
